A study of Mus musculus with 4 samples.

Results

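The 10 genes described here are Fos, Fosb, Jun, Junb, Jund, Egr1, Ier2, Nr4a1, Atf3 and Dusp1, the best known immediate-early genes and the core subunits of the transcription factor AP-1. They were picked by name from a bulk RNA-seq count table of 55399 genes, with earlier results of these data known. All 10 were found in the table, and all 10 were among the 16393 genes that passed the filter on low counts. The cells were mouse bone marrow cells labelled Lsk, which usually stands for marrow cells without lineage markers that carry Sca-1 and Kit, the fraction of blood stem cells and multipotent progenitors. Libraries were prepared from total RNA with an Illumina TruSeq kit. Of the 4 libraries, 2 were labelled Ppm1bCKO (conditional knockout of Ppm1b, a metal-dependent serine/threonine phosphatase) and 2 were labelled Ppm1bfl/fl (Ppm1b alleles flanked by loxP sites, the controls). The Cre line, the time of deletion, the age of the mice and any pooling of mice are not stated in the labels. Since nothing says that the libraries of a genotype are from different mice, a p-value here reflects the spread among the 4 libraries alone, which may be technical.

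Immediate-early genes are switched on within minutes of a stimulus by kinases that act on factors already present, chiefly serum response factor with its partners and CREB, so no new protein is needed first. Their transcripts are short-lived, and several of them encode proteins that switch the response off again. AP-1 is a dimer held together by leucine zippers, in which a Fos protein needs a Jun protein as partner whereas Jun proteins can also pair with each other. These genes also respond when tissue is dissociated, stained and sorted, so their level in isolated cells can reflect handling as well as the state in the marrow.

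The promoters of 5 of the genes are shown because the first 3 were the members with the lowest p-values in the comparison, Junb was close in both genotypes, and Dusp1 alone held a complete cAMP response element. Each is the stretch of 250 bases before the RefSeq start of the gene (GRCm38.p6), 5′ to 3′ on the gene's own strand. The windows are chr12:85473640-85473889 (plus strand) for Fos, chr7:19310046-19310295 (minus) for Fosb, chr4:95052223-95052472 (minus) for Jun, chr8:84978749-84978998 (minus) for Junb and chr17:26508473-26508722 (minus) for Dusp1. Capitals mark matches to the cAMP response element TGACGTCA, its core TGACG and the EGR site GCGNGGGCG, on either strand.
Fos: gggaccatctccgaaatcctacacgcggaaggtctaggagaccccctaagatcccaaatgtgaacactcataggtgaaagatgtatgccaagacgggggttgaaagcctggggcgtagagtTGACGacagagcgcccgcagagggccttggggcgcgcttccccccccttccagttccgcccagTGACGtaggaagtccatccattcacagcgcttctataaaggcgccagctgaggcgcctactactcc
Fosb: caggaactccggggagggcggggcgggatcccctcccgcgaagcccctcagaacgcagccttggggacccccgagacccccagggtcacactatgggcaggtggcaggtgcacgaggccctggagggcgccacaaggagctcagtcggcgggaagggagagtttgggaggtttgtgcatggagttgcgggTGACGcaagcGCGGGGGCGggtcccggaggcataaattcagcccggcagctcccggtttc
Jun: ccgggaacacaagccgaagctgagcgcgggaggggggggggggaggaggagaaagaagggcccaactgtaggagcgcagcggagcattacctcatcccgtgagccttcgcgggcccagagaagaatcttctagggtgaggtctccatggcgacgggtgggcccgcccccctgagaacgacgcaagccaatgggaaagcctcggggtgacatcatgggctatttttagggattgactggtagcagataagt
Junb: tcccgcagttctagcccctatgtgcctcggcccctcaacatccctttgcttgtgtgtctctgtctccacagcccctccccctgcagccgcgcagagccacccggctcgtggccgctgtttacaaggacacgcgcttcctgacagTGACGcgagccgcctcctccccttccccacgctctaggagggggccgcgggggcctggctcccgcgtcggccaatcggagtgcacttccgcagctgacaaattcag
Dusp1: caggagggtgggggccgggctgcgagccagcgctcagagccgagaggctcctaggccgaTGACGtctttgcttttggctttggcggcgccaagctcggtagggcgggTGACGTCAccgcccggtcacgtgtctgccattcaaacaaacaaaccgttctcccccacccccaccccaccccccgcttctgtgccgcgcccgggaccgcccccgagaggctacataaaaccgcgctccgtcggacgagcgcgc

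RefSeq promoter windows were read for 8 of the 10 genes. Egr1, which lies on chromosome 18, and Ier2 were not among them. The TGACG core, the sequence bound by CREB and ATF proteins, was found in 6 of the 8 windows and in 17.8% of all 32851 windows of the same length. It lies inside TGACGTCA, so a complete element counts as a core too. In Fos it stood 66 to 62 and 129 to 125 bases before the start, and in Fosb 60 to 56 bases before it. In Junb it stood 106 to 102 bases before the start, and in Dusp1 the complete element lay 143 to 136 bases before it with a further core at 191 to 187. Nr4a1 held 4 cores and Atf3 held 1, 7 to 3 bases before the start, while the windows of Jun and Jund held none. The complete element was present in 1.55% of all windows. The EGR site was found in Fosb and Nr4a1, against 4.70% of all windows. The AP-1 site TGANTCA and the CArG box of serum response factor were found in 0 of the 8 windows, against 6.75% and 1.47% of all windows. Only exact matches within 250 bases before the start were counted. Sites farther away were not searched, so these counts do not show that the genes lack them. The RefSeq start lay 0 bases from the outer end of the gene in the count table for Fos and Jun, 6 for Fosb and 30 for Junb. That distance was 1210 bases for Jund, 12577 for Nr4a1, 34706 for Atf3 and 53656 for Dusp1, with the RefSeq start outside the gene span of the table for Jund and inside it for the other 3 genes.

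Total counts were 22393973 and 24856083 in the libraries labelled Ppm1bCKO and 26002277 and 30045382 in the Ppm1bfl/fl libraries. Ppm1b itself had 84.3 and 121 CPM (read counts relative to the library total, scaled between libraries by the TMM method) in the libraries labelled Ppm1bCKO, against 80.8 and 82.5 CPM in the Ppm1bfl/fl libraries (log2 fold change 0.33 ± 0.20, edgeR adjusted p = 0.717). A gene-level count sums over all exons and cannot show the loss of a few, so every direction given here rests on the labels. Transcripts of the 9 stem and progenitor markers, among them Kit and Ly6a (Sca-1), summed to 352 to 440.3 CPM in the libraries labelled Ppm1bCKO and 421 to 537 CPM in the Ppm1bfl/fl libraries. Mature neutrophil, eosinophil, plasma cell and erythroid markers summed to between 2669 and 21593 CPM for each type in all 4 libraries, so the values describe every cell collected and not a pure stem cell fraction. The second library labelled Ppm1bCKO stood apart from the other 3 in its relation to gene length, which is described beside the genes it touches.

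Fos, Fosb and Jun, which encode activating subunits of AP-1, had fewer reads in both libraries labelled Ppm1bCKO than in either Ppm1bfl/fl library, and none of the 3 passed the test over all genes. Fos, the prototype immediate-early transcription factor (chromosome 12, 85473890 to 85477273, mm10), had 679 and 607 CPM in the libraries labelled Ppm1bCKO, against 1125 and 1122 CPM in the Ppm1bfl/fl libraries. The values of each genotype lay close together and the genotypes were far apart. The log2 fold change, Ppm1bCKO over Ppm1bfl/fl throughout, was -0.80 ± 0.18 (SE), or 0.572-fold, with an edgeR quasi-likelihood adjusted p of 0.2496. Fosb, a close relative of Fos whose splice forms persist longer (chromosome 7, 19302696 to 19310051), had 1190.4 and 921 CPM in the libraries labelled Ppm1bCKO, against 1783 and 1579 CPM in the Ppm1bfl/fl libraries. The spread within each genotype was wider than for Fos, but the genotypes did not overlap (log2 fold change -0.67 ± 0.21, edgeR adjusted p = 0.615). Jun, the partner of Fos and a substrate of the JNK kinases (chromosome 4, 95049034 to 95052222), had 763 and 732 CPM in the libraries labelled Ppm1bCKO, against 1138 and 1049 CPM in the Ppm1bfl/fl libraries. Again all values of one genotype lay below those of the other (log2 fold change -0.55 ± 0.18, edgeR adjusted p = 0.646).

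**Figure D1:**
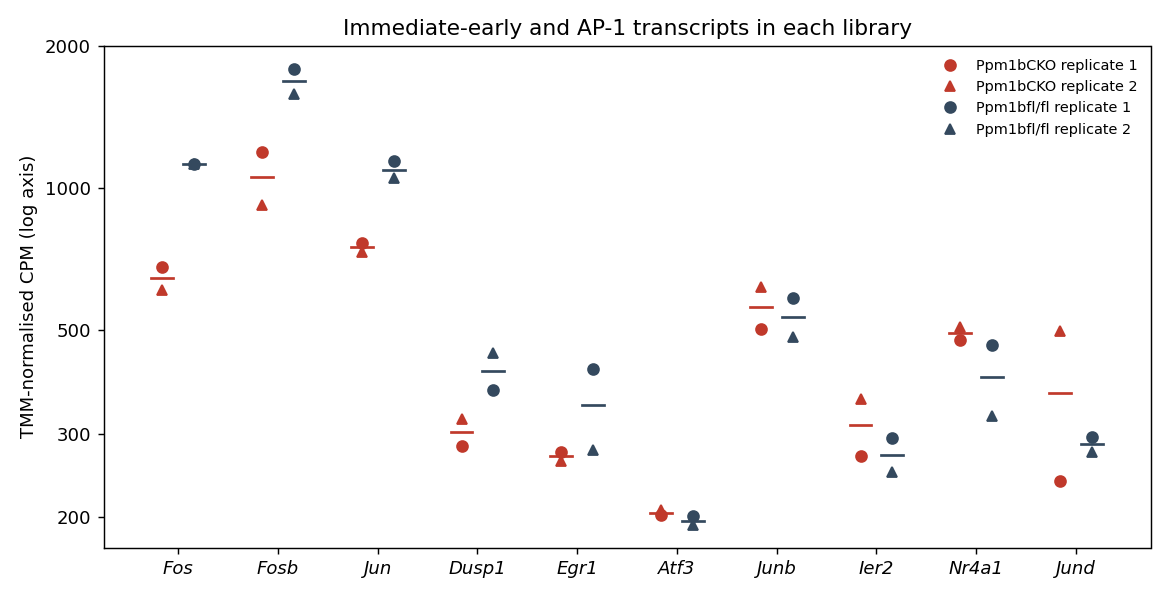
TMM-normalised CPM (log axis) of the 10 genes, ordered by log2 fold change, in the libraries labelled Ppm1bCKO (red, left of each pair) and Ppm1bfl/fl (dark, right); circles are replicate 1, triangles replicate 2 and bars the group means. For Fos the red points sit at 679 and 607 CPM and the dark points at 1125 and 1122 CPM, whereas the red points of Jund are apart at 239 and 496 CPM.

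Over all 10 genes, 0 passed an edgeR adjusted p of 0.05, a level that 0.372% of the 16393 tested genes passed (0.311% lower and 0.061% higher in the libraries labelled Ppm1bCKO). Among the 951 genes at least as abundant as the least abundant of the 10, 0.105% passed, and 1.47% were lower at an unadjusted p below 0.05. At an unadjusted p below 0.05, 4 of the 10 were lower in the libraries labelled Ppm1bCKO (Fos, Fosb, Jun and Dusp1), where 3.21% of all tested genes were, or 6.44% counting both directions. Limma-voom called 0 of the 10 (0.311% of all genes), and DESeq2 called Fos alone (log2 fold change -0.80, DESeq2 adjusted p = 0.0027), where it called 1.24% of all genes it tested, 0.821% as lower. The call of Fos thus depends on the tool. Fos was also called by edgeR with no filter on low counts (adjusted p = 0.0111; 1.1% of all genes called), without Ppm1bCKO replicate 1 (-0.89, edgeR adjusted p = 0.000661; 19.4% of all genes called) and without Ppm1bCKO replicate 2 (-0.73, edgeR adjusted p = 0.0174; 0.547% of all genes called). It was not called without either Ppm1bfl/fl library, where the remaining estimates were -0.81 in both cases (edgeR adjusted p = 0.859 and 0.756). Over the 14 alternatives the log2 fold change ran from -0.90 to -0.73 for Fos, from -0.87 to -0.50 for Fosb and from -0.61 to -0.49 for Jun. Fosb and Jun were called in 1 of them each, without Ppm1bCKO replicate 1 (edgeR adjusted p = 0.000945 and 0.00651).

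Markers of other cell types differed between the same libraries. All 6 plasma cell markers had negative log2 fold changes, with summed levels of 3989.7 to 5370.3 CPM in the libraries labelled Ppm1bCKO against 12940.5 to 21593 CPM in the Ppm1bfl/fl libraries. All 6 B cell markers had positive ones, with sums of 262 to 556 CPM in the libraries labelled Ppm1bCKO and 173 to 176 CPM in Ppm1bfl/fl. The same held for all 5 eosinophil markers, with 3981 to 6975 CPM in Ppm1bCKO and 2669 to 2897 CPM in Ppm1bfl/fl. Of the 9 stem and progenitor markers, 8 had negative log2 fold changes (median -0.29), among them Kit at -0.46 ± 0.22 (edgeR adjusted p = 0.717), and their sums overlapped. Of the 8 monocyte and macrophage markers, 7 had negative log2 fold changes, but their sums overlapped at 1558 to 1686 CPM in Ppm1bCKO and 1457 to 1645 CPM in Ppm1bfl/fl. Sums were higher in both libraries labelled Ppm1bCKO for 7 neutrophil markers (Ppm1bCKO 4201 to 5009.9 CPM, Ppm1bfl/fl 4005 to 4165 CPM) and 6 T and NK cell markers (Ppm1bCKO 152 to 194 CPM, Ppm1bfl/fl 130.1 to 148 CPM). They were also higher for 5 plasmacytoid dendritic cell markers (Ppm1bCKO 687 to 688 CPM, Ppm1bfl/fl 532 to 575 CPM) and 6 stromal and endothelial markers (Ppm1bCKO 415 to 527 CPM, Ppm1bfl/fl 386 to 408 CPM). The single markers of these 4 lists were not all higher. Log2 fold changes were positive for 5 and negative for 2 neutrophil markers, with a median of 0.057. They were positive for 5 and negative for 1 of the T and NK cell markers, and positive for 4 and negative for 2 stromal and endothelial markers. All 5 plasmacytoid dendritic cell markers were positive. The 6 erythroid markers overlapped, at 8815 to 14133 CPM in Ppm1bCKO and 5718 to 10007 CPM in Ppm1bfl/fl. No marker of these lists was at 0 in any library. The part of these cell types in the values of Fos, Fosb and Jun was not tested, and in bulk RNA fewer cells of a type and less RNA per cell cannot be told apart.

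Junb and Jund, the Jun proteins that can restrain as well as carry AP-1 activity, did not share the lower values of Jun. Junb (chromosome 8, 84976910 to 84978718) had 501 and 617 CPM in the libraries labelled Ppm1bCKO, against 584 and 481 CPM in the Ppm1bfl/fl libraries. The genotypes overlapped and the means differed by less than the spread between libraries (559 ± 81.7 CPM in Ppm1bCKO and 533 ± 73.0 CPM in Ppm1bfl/fl, SD over 2 libraries; log2 fold change 0.069 ± 0.20, edgeR adjusted p = 0.924). Of its exonic bases, 173 overlap Prdx2 on the opposite strand, and since the strand setting of the counting was not given, reads there cannot be assigned with certainty. The same holds for 232 bases of Jun shared with the antisense gene Junos, 877 bases of Jund shared with Gm11175 (listed at 0 counts) and 11 bases of Dusp1 shared with Ergic1. Jund (chromosome 8, 70698949 to 70700616) had 239 and 496 CPM in the libraries labelled Ppm1bCKO, against 297 and 276 CPM in the Ppm1bfl/fl libraries. Its replicates labelled Ppm1bCKO lay on either side of both controls and differed 2.07-fold, the widest gap between replicates among the 10 genes. The log2 fold change of Jund, 0.36 ± 0.30 (edgeR adjusted p = 0.746), became -0.26 without Ppm1bCKO replicate 2 and 0.79 without Ppm1bCKO replicate 1. Its direction thus rests on which of these libraries is kept. Each of these fits keeps 1 library of that genotype, and replicate 2 is the library with the length trend described below.

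The other transcription factor genes of the early response were close between genotypes or spread widely within one. Egr1, a zinc finger factor induced through serum response factor (chromosome 18, 34859823 to 34864984), had 275 and 264 CPM in the libraries labelled Ppm1bCKO, against 413 and 277 CPM in the Ppm1bfl/fl libraries. The upper control library stood apart and the lower one lay close to the other genotype (log2 fold change -0.36 ± 0.21, edgeR adjusted p = 0.717). Without Ppm1bfl/fl replicate 1 the estimate was -0.047. Nr4a1, an orphan nuclear receptor (chromosome 15, 101254269 to 101274795), had 476 and 507 CPM in the libraries labelled Ppm1bCKO, against 464 and 328 CPM in the Ppm1bfl/fl libraries. Here too the controls were spread more widely than the other genotype (log2 fold change 0.31 ± 0.21, edgeR adjusted p = 0.722), and without Ppm1bfl/fl replicate 2 the estimate was 0.082. Ier2, a small nuclear protein of the early response (chromosome 8, 84661331 to 84662854), had 269 and 357 CPM in the libraries labelled Ppm1bCKO, against 294 and 249 CPM in the Ppm1bfl/fl libraries, with overlap (log2 fold change 0.21 ± 0.20, edgeR adjusted p = 0.767). Atf3, a stress-induced member of the ATF family that can pair with Jun proteins (chromosome 1, 191170296 to 191218039), had the most even values, with 202 and 207 CPM in the libraries labelled Ppm1bCKO, against 201 and 193 CPM in the Ppm1bfl/fl libraries. Atf3 thus had a difference smaller than its standard error (log2 fold change 0.057 ± 0.16, edgeR adjusted p = 0.921).

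Dusp1, a phosphatase that removes the activating phosphates from MAP kinases and so ends the response (chromosome 17, 26505590 to 26562128), had 283 and 323 CPM in the libraries labelled Ppm1bCKO, against 372 and 447 CPM in the Ppm1bfl/fl libraries. The genotypes did not overlap, and the difference did not pass the test (log2 fold change -0.43 ± 0.18, edgeR adjusted p = 0.717). Over the 10 genes, 5 had both libraries labelled Ppm1bCKO below both controls and 2 had both above, against 20.6% of all tested genes in each direction and 41.1% in both together. Both genotypes overlapped for Junb, Jund and Ier2. The median log2 fold change of the 10 was -0.15, beside -0.0032 over all tested genes, with 5 positive and 5 negative values. That median was 0.018 without Ppm1bfl/fl replicate 1 and -0.30 without Ppm1bCKO replicate 2.

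**Figure D2:**
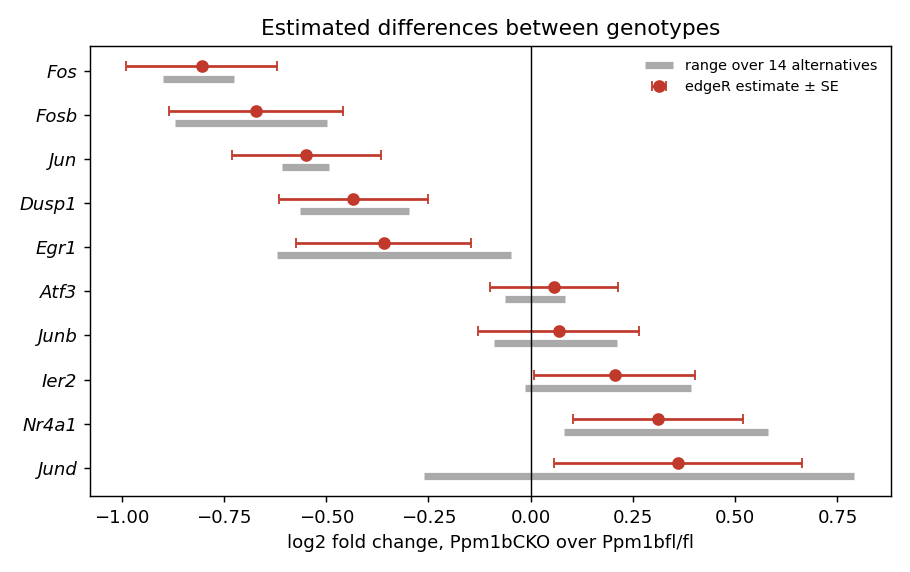
Log2 fold change, Ppm1bCKO over Ppm1bfl/fl, of the 10 genes by edgeR (red points, bars are standard errors) with the range over 14 alternative analyses (grey). Fos, Fosb, Jun, Dusp1 and Egr1 lie left of 0 with their whole grey range, whereas that of Jund runs from -0.26 to 0.79.

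Levels of different genes were compared per length, as TPM (read counts divided by exonic length and scaled to the same total in each library). In the libraries labelled Ppm1bCKO the order of mean TPM was Junb (876), Fos (788), Jun (673), Jund (609), Ier2 (581), Fosb (491), Nr4a1 (400.0), Atf3 (272), Dusp1 (261) and Egr1 (172). Neighbours in that order overlapped between libraries, except Nr4a1 with Atf3 and Dusp1 with Egr1. In the Ppm1bfl/fl libraries it was Fos (1418), Jun (1018), Junb (874), Fosb (799), Ier2 (529), Jund (509), Dusp1 (367), Nr4a1 (335), Atf3 (271) and Egr1 (228). There Fos stood clear of Jun and Jun of Junb, Fosb stood clear of Ier2, Jund of Dusp1 and Nr4a1 of Atf3, and the remaining neighbours overlapped. Fos ranked 134 and 196 among all genes by TPM in the libraries labelled Ppm1bCKO and 76 and 71 in the Ppm1bfl/fl libraries, so these were abundant transcripts in cells of either genotype. The 10 genes together took 0.495% and 0.480% of all counts in the libraries labelled Ppm1bCKO, against 0.683% and 0.602% in the Ppm1bfl/fl libraries. With 2 libraries each, a two-sided exact permutation test cannot go below p = 0.333.

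The make-up of AP-1 subunit transcripts, a measure chosen after the values were seen, held a smaller Fos family share in both libraries labelled Ppm1bCKO. Fos family transcripts (Fos, Fosb, Fosl1, Fosl2) summed to 1598 and 1096 TPM in the libraries labelled Ppm1bCKO, against 2327 and 2234 TPM in the Ppm1bfl/fl libraries. Jun family transcripts (Jun, Junb, Jund) summed to 2074 and 2243 TPM in the libraries labelled Ppm1bCKO, against 2535 and 2267 TPM in the Ppm1bfl/fl libraries. The ratio of Fos to Jun family was thus 0.770 and 0.489 in the libraries labelled Ppm1bCKO and 0.918 and 0.986 in the Ppm1bfl/fl libraries. Fos made up 24.7% and 19.98% of the 7 transcripts in the libraries labelled Ppm1bCKO, against 29.1% and 31.6% in the Ppm1bfl/fl libraries. Junb made up 23.7% and 26.4% in the libraries labelled Ppm1bCKO, against 19.6% and 17.6% in the Ppm1bfl/fl libraries. A share rises when other parts of the total fall, and the level of Junb itself overlapped between genotypes. It was 871 and 881 TPM in the libraries labelled Ppm1bCKO, against 955 and 793 TPM in the Ppm1bfl/fl libraries. The share of Jund was 12.3% and 23.0% in the libraries labelled Ppm1bCKO, against 10.8% and 10.9% in the Ppm1bfl/fl libraries, so it stood out in the second library labelled Ppm1bCKO only. The length trend of that library, described below, was not removed from these ratios and shares. Fosl2 held 1.22% to 2.34% and Fosl1 at most 0.109% in any of the 4 libraries.

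**Figure D3:**
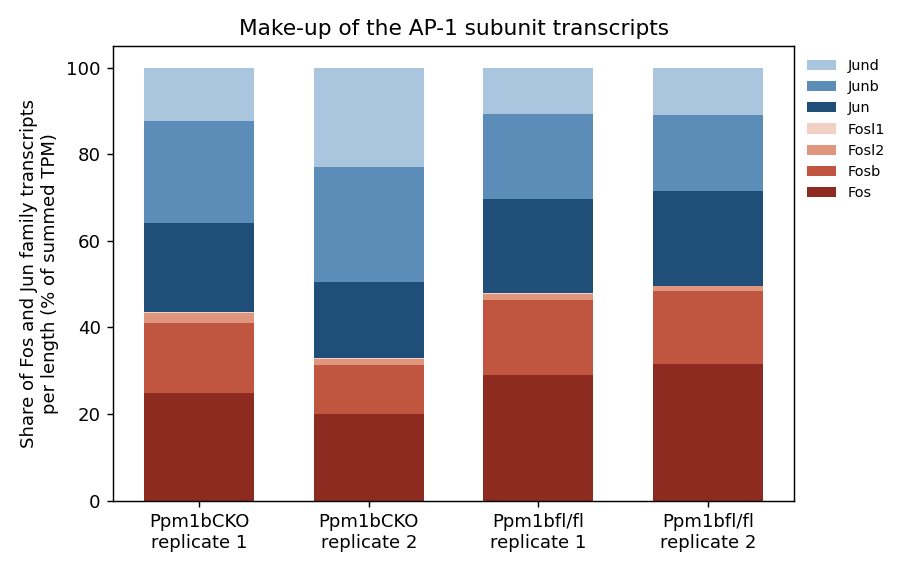
Share of each Fos family (red) and Jun family (blue) transcript in their summed TPM, for the libraries labelled Ppm1bCKO (left) and the Ppm1bfl/fl libraries (right). The red part is smaller in both left bars, with Fos at 24.7% and 19.98% in Ppm1bCKO, against 29.1% and 31.6% in Ppm1bfl/fl.

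Ppm1bCKO replicate 2 differed from the other libraries in a way that followed gene length. Its log2 CPM minus the mean of the other 3 libraries had a median of 0.48 over 1370 genes with under 2000 exonic bases and of -0.14 over 5802 genes with over 4000. In the other libraries the medians lay between -0.20 and -0.14 for the short genes and between 0.045 and 0.053 for the long ones. Each of those medians is set against a mean that includes Ppm1bCKO replicate 2, so a shift in that library moves them the opposite way. Junb, Jund and Ier2, with 1809, 1668 and 1524 exonic bases, are such short genes, and they deviated by 0.24, 0.88 and 0.40 in that library. The medians of genes of their length, in 20 length bins, were 0.41, 0.52 and 0.52, so Ier2 lay within the quartiles of its bin, Junb at its lower quartile (0.24) and Jund above its upper quartile (0.66). Fos, with 2352 bases, deviated by -0.65 where genes of its length had a median of 0.30. Fosb and Jun deviated by -0.70 and -0.41 where the medians were -0.13 and 0.16. Both Ppm1bfl/fl libraries are part of the mean used here, so these deviations also hold the difference between genotypes. Ppm1bCKO replicate 1, set against the other libraries in the same way, deviated by -0.43 for Fos, -0.21 for Fosb and -0.32 for Jun. With each library's length trend removed, an analysis added with the values already known, the log2 fold changes were -0.90 ± 0.17 for Fos, -0.61 ± 0.16 for Fosb and -0.59 ± 0.15 for Jun, and 0 of the 10 genes passed (edgeR adjusted p = 0.0947, 0.373 and 0.326 for these 3). Those of Junb and Atf3 then became -0.090 and -0.062, that of Jund 0.16 and that of Ier2 0.024.

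**Figure D4:**
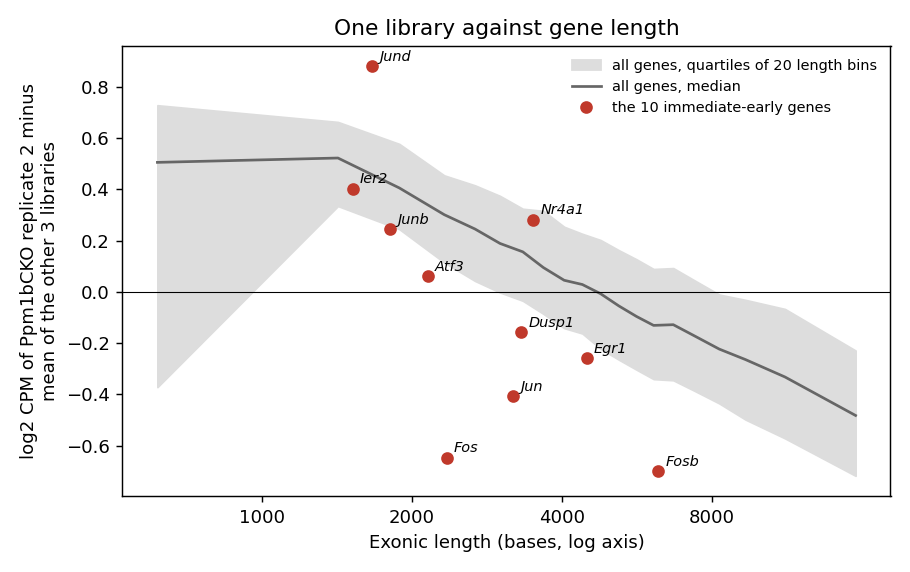
Deviation of Ppm1bCKO replicate 2 from the mean of the other 3 libraries (log2 CPM) against exonic length (log axis), for the 10 genes (red) and for all genes in 20 length bins (line, median; band, quartiles). Fos lies at -0.65, below the 0.30 of genes of its length, while Ier2 lies in the band, Junb at its lower edge and Jund above it.

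The 10 transcripts differ in structure. Jun, Junb, Jund and Ier2 are made of 1 exon in the annotated transcript with the longest coding sequence, Egr1 of 2, Fos, Fosb, Atf3 and Dusp1 of 4 and Nr4a1 of 8. The pentamer ATTTA, the core of the AU-rich elements that mark unstable transcripts, occurred 4 times each in the 3′ untranslated regions of Fos, Jun and Dusp1, and 24.9% of all genes held at least as many. It occurred 3 times each in Nr4a1 and Atf3, 2 times each in Junb and Egr1, once each in Fosb and Jund, and 0 times in Ier2. At least 1 was present in 9 of the 10 genes, against 61.5% of all genes with an annotated 3′ untranslated region. Members with 4 copies had negative log2 fold changes, but so did Fosb with 1, and counts of a pentamer are a description only.

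The wider early response was read from 5 lists of other genes, and 0 of their tested genes passed the edgeR test over all genes. Among 15 other AP-1 and related bZIP genes the median log2 fold change was 0.043. Among them, Maf, a transcription factor of macrophages, had 13.2 and 13.99 CPM in the libraries labelled Ppm1bCKO, against 20.2 and 19.0 CPM in both controls (log2 fold change -0.53 ± 0.20, edgeR adjusted p = 0.717). Atf4, the effector of the integrated stress response, was at 0.38 ± 0.19. The macrophage markers Mrc1 and Axl, chosen after their values were seen, had log2 fold changes of -0.92 and -0.96 (edgeR adjusted p = 0.108 and 0.0672). Over all 8 monocyte and macrophage markers the median was -0.24, with a range from -0.96 to 0.36, and their sums overlapped. The part of macrophages in these values was not tested. Among 17 tested early transcription factor genes the median was -0.099. The Notch target Hes1 had 5.15 and 5.98 CPM in the libraries labelled Ppm1bCKO, against 3.08 and 2.69 CPM in the Ppm1bfl/fl libraries (0.95 ± 0.28, edgeR adjusted p = 0.523). Klf10 and Klf6, zinc finger factors, had log2 fold changes of 0.42 ± 0.17 and -0.43 ± 0.20. Egr4, at 0.41 CPM or less, did not pass the filter on low counts. Each fit without a single library labelled Ppm1bCKO leaves 1 library of that genotype. Without Ppm1bCKO replicate 1, the log2 fold changes were 0.56 for Atf4, 1.05 for Hes1 and -0.62 for Klf6. That fit keeps replicate 2, the library with the length trend. Without Ppm1bCKO replicate 2 they were 0.18, 0.84 and -0.26, in the same order. Genes of the groups that follow were at -0.70 (Rhob), 0.81 (Dusp16), -0.60 (Mrtfa), 0.44 (Elk4) and 0.52 (Dnaja1) without Ppm1bCKO replicate 1. Without Ppm1bCKO replicate 2 these genes were at -0.63, 0.79, -0.22, 0.24 and 0.12.

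Feedback regulators and genes of early RNA decay held values of both signs. Of 37 tested, 26 had positive log2 fold changes, with a median of 0.15, where 8124 of all 16393 tested genes were positive. The genotypes overlapped for 19 of the 37. Both libraries labelled Ppm1bCKO lay above both controls for 15 and below for 3, against 20.6% of all tested genes in each direction. Rhob, a small GTPase gene of the early response, had 215 and 206 CPM in the libraries labelled Ppm1bCKO, against 358 and 309 CPM in the Ppm1bfl/fl libraries, without overlap (-0.66 ± 0.17, edgeR adjusted p = 0.351). Nfkbia, which encodes the inhibitor of NF-κB and is its target, had 364 and 501 CPM in the libraries labelled Ppm1bCKO, against 252 and 268 CPM in the Ppm1bfl/fl libraries (0.73 ± 0.20, edgeR adjusted p = 0.414; 0.0242 with no filter on low counts). With 1610 exonic bases, Nfkbia is a short gene, a kind raised in Ppm1bCKO replicate 2 by the length trend. Its log2 fold change was 0.95 without Ppm1bCKO replicate 1 and 0.48 without Ppm1bCKO replicate 2. With each library's length trend removed it was 0.56 (edgeR adjusted p = 0.306). Dusp16, a phosphatase of the JNK and p38 kinases, had 18.3 and 18.6 CPM in the libraries labelled Ppm1bCKO, against 11.9 and 9.38 CPM in the Ppm1bfl/fl libraries (0.80 ± 0.22, edgeR adjusted p = 0.420). Its direction was opposite to that of Dusp1, and the difference between them was not tested.

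The kinases and transcription factors that feed into these genes differed in both directions. Of 25 tested, 12 had positive and 13 negative log2 fold changes, with a median of -0.014. Both libraries labelled Ppm1bCKO lay below both controls for 8 of them and above for 6, and 11 overlapped. Over all tested genes, 20.6% lay below and 20.6% above in this way. The named genes were Crem, a CREB relative (0.52 ± 0.22), Mrtfa, a coactivator of serum response factor (-0.40 ± 0.18), and Elk4, its ternary complex partner (0.34 ± 0.17), each at an edgeR adjusted p of 0.717. Srf had 83.2 and 84.5 CPM in the libraries labelled Ppm1bCKO, against 105.5 and 95.3 CPM in the Ppm1bfl/fl libraries (-0.26 ± 0.16, edgeR adjusted p = 0.717). Map3k7, which encodes the kinase TAK1, had 92.8 and 77.3 CPM in the libraries labelled Ppm1bCKO, against 94.7 and 101 CPM in the Ppm1bfl/fl libraries (-0.21 ± 0.17, edgeR adjusted p = 0.744). Srf and Map3k7 were chosen after their values were seen. These are transcript levels, and the phosphorylation of these proteins was not measured.

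Heat shock genes, which also respond to cell isolation, had a median log2 fold change of 0.28 over 15 tested genes, beside -0.15 over the 10 immediate-early genes. The median of the 10 was 0.018 without Ppm1bfl/fl replicate 1. The genotypes overlapped for 11 of the 15 heat shock genes, while 41.1% of all tested genes did not overlap. Hspe1, a mitochondrial co-chaperonin, had 141 and 233 CPM in the libraries labelled Ppm1bCKO, against 103 and 129 CPM in the Ppm1bfl/fl libraries (0.69 ± 0.25, edgeR adjusted p = 0.716; 0.0357 with no filter on low counts). The estimate was 1.00 without Ppm1bCKO replicate 1 and 0.28 without Ppm1bCKO replicate 2. The co-chaperone genes Dnaja1 and Dnajb4 had log2 fold changes of 0.33 ± 0.19 and 0.28 ± 0.17. The inducible genes Hspa1a and Hspa1b, chosen after their values were seen, differed more between replicates than between genotypes. Hspa1a had 2.77 and 15.2 CPM in the libraries labelled Ppm1bCKO, against 27.2 and 3.15 CPM in the Ppm1bfl/fl libraries. Hspa1b had 6.73 and 34.7 CPM in the libraries labelled Ppm1bCKO, against 57.7 and 2.29 CPM in the Ppm1bfl/fl libraries. Junb, Jund, Ier2, Nr4a1 and Atf3 had the same order of replicates, higher in the second library labelled Ppm1bCKO and in the first Ppm1bfl/fl library, whereas Fos, Fosb, Jun, Egr1 and Dusp1 did not. The part of handling in any of these values was not tested.

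**Figure D5:**
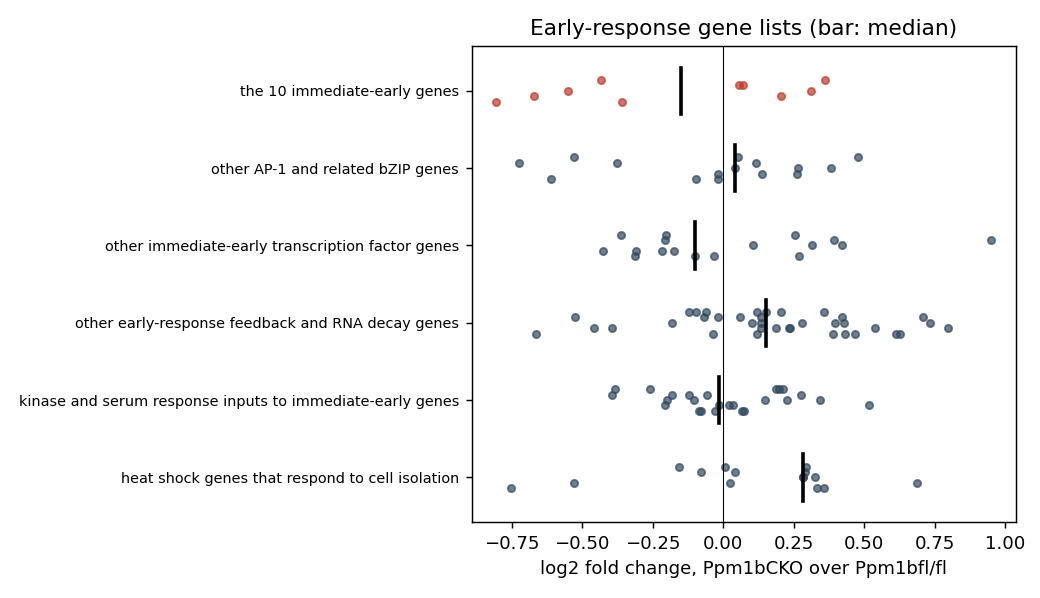
Log2 fold change, Ppm1bCKO over Ppm1bfl/fl, of every tested gene in the 10 immediate-early genes (red) and in 5 lists of related genes (dark), with the median of each as a bar. The medians lie between -0.15 for the 10 genes and 0.28 for the heat shock genes, and 0 of the genes shown passed the test over all genes.

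A median profile over the 10 genes averages out members that differ in opposite directions. The median of their log2 CPM, centred on the 4 libraries, was -0.15 and -0.036 in the libraries labelled Ppm1bCKO and 0.095 and -0.090 in the Ppm1bfl/fl libraries. The genes nearest to it by root mean square difference over the 4 libraries, at 0.046 to 0.050 on the log2 scale, were Cd274, Unc119b, Mob3a, Rcbtb2 and the pseudogene Dynlt1-ps1.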

How the data were processed

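The authors' deposited table holds raw counts per gene, whole numbers that were not normalised, for 4 libraries. Per the submitters' processing notes, the genome build was mm10 and reads passed through Trim Galore 0.6.7, HISAT2 2.2.0 (alignment) and featureCounts 2.0.1 (counting). Which annotation was used, whether counting used strand, and how multiply matching reads were handled are not given in the sources used here. Of 55399 identifiers, 55139 matched GENCODE M21 symbols without their version. The lengths are those of the deposited table, and 0 columns were left out.

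The test was edgeR 4.0.16 under R 4.3.3 (TMM factors, filterByExpr by group with minimum count 10 and total 15, robust quasi-likelihood fit, no covariate), adjusted by the Benjamini-Hochberg method over 16393 genes with a threshold of 0.05. Standard errors are the log2 fold change divided by the root of the F statistic. DESeq2 1.42.0 and limma-voom 3.58.1 were alternatives, with other scalings and filters, immunoglobulin genes left out, a replicate block, omission of each single library and, added after the data were seen, removal of each library's length trend (lowess span 0.3). Total counts per library, 22393973 to 30045382, gave the 10 genes between 4593 and 47630 reads each, so counting error was small beside the spread between libraries (biological coefficient of variation 19.1%). The 2 libraries of a genotype were not copies of each other: chi-square over its degrees of freedom was 47.8 for Ppm1bCKO and 22.9 for Ppm1bfl/fl.

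The 10 genes and all lists were chosen with earlier results of these data known. All 10 were named whatever their p, with the 3 genes of smallest p in each list and the 5 genes nearest to the median profile. Of these, 1 gene is not reported here. Other genes are identified as chosen after their values were seen. Promoters are from RefSeq (GRCm38.p6), and 3′ untranslated regions from GENCODE M21.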

Additional observations from a re-analysis of the deposited data

How the results depend on the processing

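The 10 genes kept the sign of their log2 fold changes in all 14 alternatives for Fos, Fosb, Jun, Egr1, Nr4a1 and Dusp1, and in 11 of 14 for Junb, 13 of 14 for Jund, 13 of 14 for Ier2 and 13 of 14 for Atf3. With the length trend removed, Junb was at -0.090 and Atf3 at -0.062. Leaving out each library in turn gave -0.090 to 0.21 for Junb, -0.26 to 0.79 for Jund and -0.013 to 0.39 for Ier2. The same gave 0 to 4 called genes among the 10 (Fos, Fosb, Jun and Jund without Ppm1bCKO replicate 1, Fos without Ppm1bCKO replicate 2), medians of -0.30 to 0.018, and 94 to 3336 called genes in the whole table, where 61 were called with all 4 libraries. In such fits the lone library is assumed to vary like the other genotype. DESeq2 called 199 genes and 1 of the 10, and edgeR with no low-count filter called 311 and 1 of the 10, Fos in each case. Without immunoglobulin genes the calls were 0 for edgeR (16177 tested, 989 of them with unadjusted p below 0.05), 0 for limma-voom and 79 for DESeq2. On CPM over total counts alone 1 of the 10, not 2, was higher in both libraries labelled Ppm1bCKO, and 4, not 5, were lower in both. The replicate numbers are shared by the genotypes but not said to pair samples (correlation of deviations 0.06), and with the replicate block edgeR called 207 genes and 0 of the 10. The cause of these shifts was not tested. The standard errors of the 10 log2 fold changes, 0.16 to 0.30, limit what could be detected.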
